A study of Mus musculus with 12 samples.

Results

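The iron-sulfur cluster assembly genes described here were 8 genes, found in the deposited table by the Ensembl identifiers of the symbols Iscu, Nfs1, Lyrm4, Glrx5, Isca1, Isca2, Slc25a37 and Slc25a28. All 8 were among the 27022 genes listed, and all 8 had enough reads to be tested in both kits. They were measured in liver RNA from 6 female SJL/J mice aged 11 weeks. All mice received an AIN-93G diet with 50 ppm iron from 3 weeks of age, and 3 of them (the control diet group) stayed on it. The other 3 (the iron-loaded diet group) were changed at 6 weeks to AIN-93G with 2% carbonyl iron. Each diet was fed in 1 cage, and the effect of the cage cannot be told apart from that of the diet. All mice were fasted and perfused with saline before the tissue was taken. From each RNA, 1 library was made with a whole transcript kit (Trad-KAPA) and 1 with a 3’ kit (3’-LEXO), which gave 12 libraries. The question was whether the diet changed these genes, and whether both kits measured them alike.

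Iron-sulfur clusters are small inorganic cofactors that carry electrons in the respiratory chain, form the active site of aconitase and sit in many enzymes of DNA repair and metabolism. In the mitochondrion, iron is brought through the inner membrane by the mitoferrins Slc25a37 and Slc25a28. The cysteine desulfurase Nfs1, held in its active form by the small protein Lyrm4, releases sulfur from cysteine, and a cluster is built from both on the scaffold Iscu. The glutaredoxin Glrx5 receives the new cluster and passes it on, and Isca1 and Isca2 act with it later to form the larger clusters that mitochondrial aconitase and respiratory complexes need. The liver holds much of the iron of the body and is rich in mitochondria.

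Slc25a37, the mitoferrin of developing red cells, lies on chromosome 14 of GRCm38 (69241848 to 69285112, minus strand, ENSMUSG00000034248), and Slc25a28, the more widely expressed one, on chromosome 19 (43663801 to 43674881, minus strand, ENSMUSG00000040414). Their coding sequences in GENCODE M21, of 1014 and 1092 bp, were compared because reads of such relatives could be confused. The longest stretch identical in both was 15 bp. It is shown in capitals with the bases on either side, 5′ to 3′, at positions 590 to 644 of the Slc25a37 and 671 to 725 of the Slc25a28 coding sequence, counted from the A of the start codon.
Slc25a37: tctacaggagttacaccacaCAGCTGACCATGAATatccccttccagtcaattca
Slc25a28: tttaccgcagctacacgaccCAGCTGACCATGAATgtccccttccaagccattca
No window of 50 bases, the read length used, was shared by the exons of these genes. Isca1 and Isca2 had no identical stretch above 8 bp in their coding sequences. A read could thus separate the members of each pair.

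Iscu (chromosome 5, 113772748 to 113778288, plus strand, ENSMUSG00000025825) resembles a processed pseudogene, Gm16437 on chromosome 19, much more closely. A stretch of 103 bp, at positions 218 to 320 of the Iscu coding sequence, was identical in both. It is shown in capitals with the bases on either side, at positions 198 to 340.
Iscu: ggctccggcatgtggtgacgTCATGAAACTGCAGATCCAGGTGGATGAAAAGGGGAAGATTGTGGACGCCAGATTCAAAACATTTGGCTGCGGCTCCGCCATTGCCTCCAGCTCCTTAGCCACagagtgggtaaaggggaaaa
Gm16437: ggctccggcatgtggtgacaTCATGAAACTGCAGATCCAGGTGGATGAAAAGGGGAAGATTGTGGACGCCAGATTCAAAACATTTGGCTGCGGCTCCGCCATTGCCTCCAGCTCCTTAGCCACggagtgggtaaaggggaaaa
The deposited counts hold uniquely mapped reads, so reads that mapped equally well to both genes were not counted for either. Gm16437 itself had 4 to 10 counts per Trad-KAPA library and 0 to 1 per 3’-LEXO library. Of the 50-base windows in the exons of Iscu, 12.1% occurred in another gene of the annotation. For Isca1 (chromosome 13, 59755409 to 59769810, minus strand, ENSMUSG00000044792) this share was 14.2%. A coding copy, AK157302, is identical to Isca1 over 351 of its 387 coding bases, and it had 0 to 3 counts per library. The levels of Iscu and Isca1 are uncertain to that extent.

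Nfs1 (chromosome 2, 156123639 to 156144186, minus strand, ENSMUSG00000027618) overlaps Romo1 on the opposite strand over 148 bp of exon and Gm28036 on its own strand over 256 bp. Lyrm4 (chromosome 13, 35978395 to 36117526, minus strand, ENSMUSG00000046573) overlaps Fars2 on the opposite strand over 115 bp. How strand was treated in the counting is not given in the sources used here, so reads of these overlaps could not be assigned. Slc25a37 shared 6.99% of its windows with other annotated genes, most of them with Gm16867, which is identical over the first 211 bp of the coding sequence. Glrx5 (chromosome 12, 105032688 to 105042906, plus strand, ENSMUSG00000021102), Isca2 (chromosome 12, 84773251 to 84775088, plus strand, ENSMUSG00000021241) and Slc25a28 shared none.

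The libraries held 13834682 to 16553616 counts in Trad-KAPA and 10724672 to 14104236 in 3’-LEXO. Levels are given as CPM, counts scaled to a library total of 1 M with TMM within a kit. Hamp, the iron-responsive hormone of hepatocytes, was at 44.5 to 515 CPM in the control and 1034 to 1245 CPM in the iron-loaded Trad-KAPA libraries. Control mouse 1 was the high control. The log2 fold change of Hamp was 2.36 in Trad-KAPA, where it did not pass (edgeR adjusted p = 0.0667), and 2.53 in 3’-LEXO (edgeR adjusted p = 0.0425). Of 6 genes of iron metabolism taken as a check of the diet, Hamp among them, 4 were called higher in Trad-KAPA. In 3’-LEXO 3 of the 5 tested were. Iron-loaded mouse 1 stood apart from the other 2 of its diet in both kits (chi-square per degree of freedom 49.5 to 59.8 against 5.97 to 5.98 between mice 2 and 3). Pairs of control mice lay between, at 18.5 to 19.9 in Trad-KAPA and 25.8 to 35.9 in 3’-LEXO. Results that rest on iron-loaded mouse 1 are therefore given with and without it. Hepatocyte markers were abundant in every library, and their sum was lowest in iron-loaded mouse 1. It was 106200 CPM against 152300 and 153900 CPM in the other iron-loaded Trad-KAPA libraries, and 48260 against 71380 and 70130 CPM in 3’-LEXO. Most of this sum was Alb, at 87360 CPM in that mouse and 131600 and 133100 CPM in the others in Trad-KAPA. Among the iron-loaded mice, Apoa1, Ttr and Serpina1c were also lowest in mouse 1 in both kits, and Fgb in Trad-KAPA. Cps1 was highest there in both kits, at 5971.5 CPM against 3831 and 3890 CPM in Trad-KAPA. The summed markers of lymphocytes reached at most 4.59 CPM. Those of bile duct cells were lower in every iron-loaded mouse, at 4.68 to 5.82 against 6.04 to 6.87 CPM in Trad-KAPA and 9.81 to 11.4 against 12.9 to 16.0 CPM in 3’-LEXO. Sox9 held most of that sum, with means of 4.07 (control) and 2.74 CPM (iron-loaded) in Trad-KAPA and 11.6 and 7.34 CPM in 3’-LEXO. The means of Krt19, Krt7 and Epcam were higher in the iron-loaded 3’-LEXO libraries, and of these only Epcam was higher in Trad-KAPA.

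None of the 8 genes passed the test for diet in either kit. In Trad-KAPA, 5 of the 8 genes were at separate levels in the diets, with Slc25a37, Glrx5, Isca1 and Lyrm4 above and Nfs1 below the control mice in every iron-loaded mouse. In 3’-LEXO this held for Glrx5 (above) and Nfs1 (below). The changes were small, from 0.854-fold for Nfs1 to 1.31-fold for Slc25a37 in Trad-KAPA, and no adjusted p was below 0.0524.

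The count of 0 of 8 came from edgeR's quasi-likelihood test over all genes, with Benjamini-Hochberg adjustment at 0.05. Of all genes tested, 17.1% passed it in Trad-KAPA (2255 of 13151) and 6.1% in 3’-LEXO (811 of 13301). Before adjustment, 4 members were below p of 0.05 in Trad-KAPA and 1 in 3’-LEXO, beside 34.3% and 25% of all genes. With DESeq2 0 members passed in either kit, and 1 and 2 were below 0.05 before adjustment. The libraries of the diets did not overlap, with iron-loaded above, for 20.7% of all Trad-KAPA and 15.9% of all 3’-LEXO genes tested. With iron-loaded below, these shares were 21.1% and 15.6%. The 4 members above and 1 below in Trad-KAPA, and the 1 and 1 in 3’-LEXO, are to be read against these shares. The median log2 fold change (iron-loaded over control) of the 8 members was 0.20 for Trad-KAPA, where that of all genes was 0.02. For 3’-LEXO the medians were 0.18 and 0.01.

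**Figure D1:**
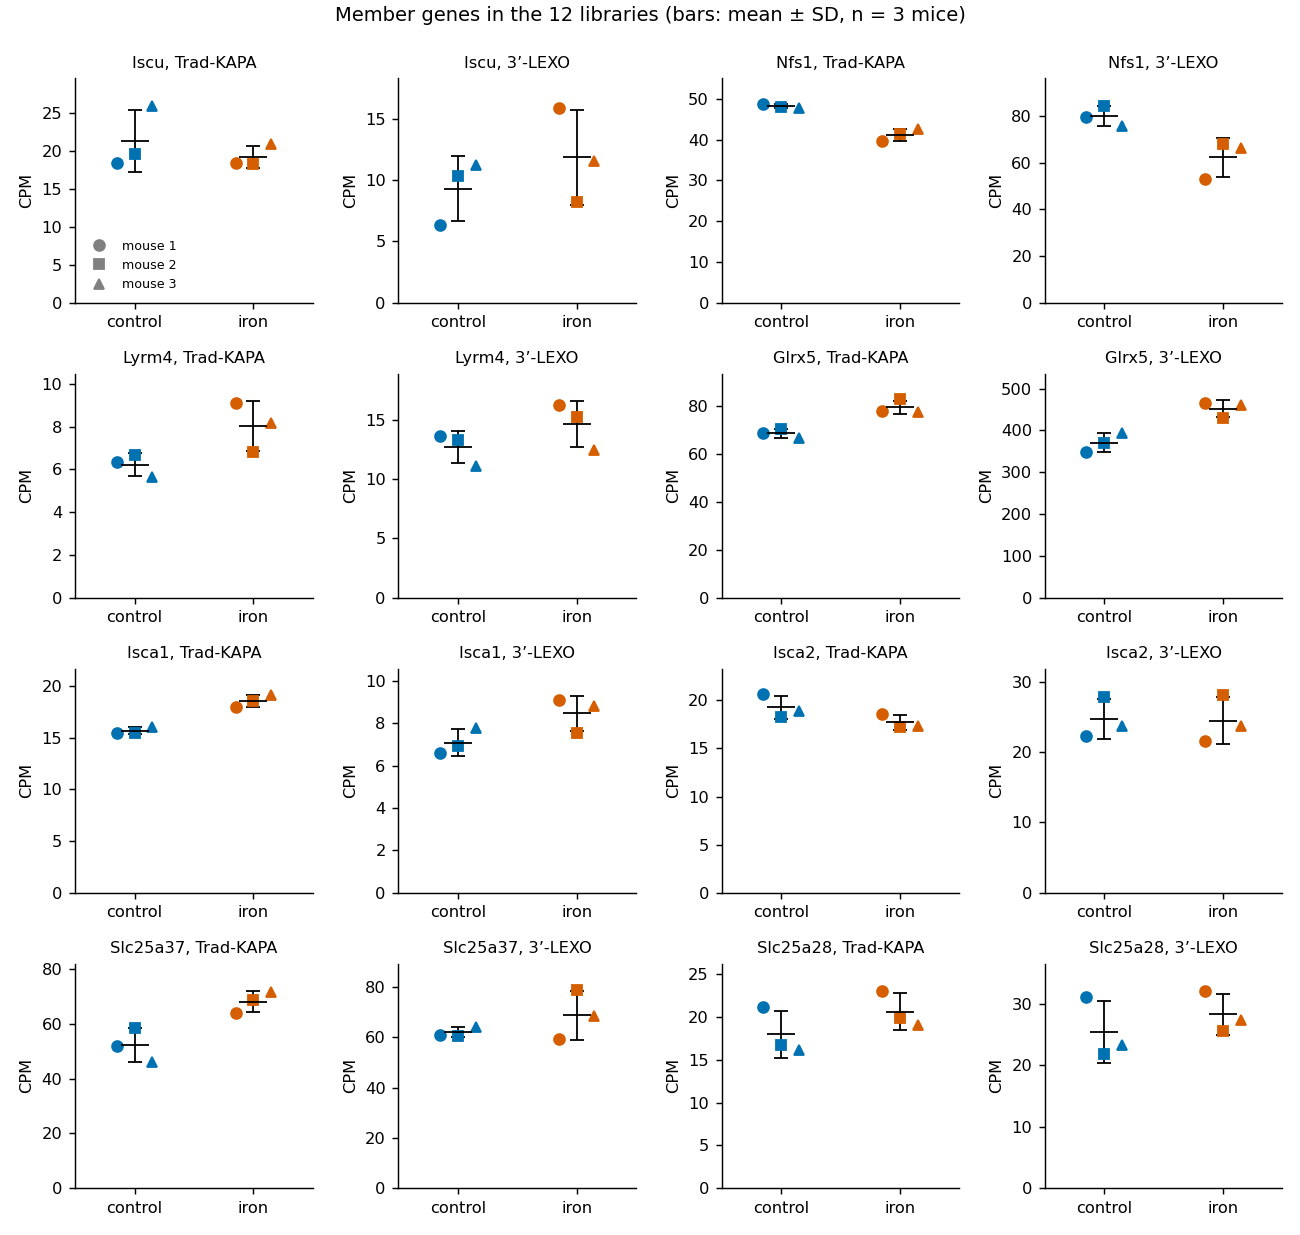
Each point is 1 library, with the level of a gene in CPM on the vertical axis, which starts at 0, and the diet on the horizontal axis. Symbols mark mice 1 to 3 of a diet, and bars give the mean and SD of 3 mice. Nfs1 lies lower and Glrx5 higher in all iron-loaded mice in both kits.

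The mitoferrin Slc25a37 came closest to the threshold. In Trad-KAPA it was at 52.0, 58.6 and 46.1 CPM in control mice 1, 2 and 3 and at 64.1, 69.0 and 71.6 CPM in iron-loaded mice 1, 2 and 3. Every iron-loaded mouse was above every control mouse. The log2 fold change was 0.38 ± 0.11 (SE, n = 3 per diet, edgeR adjusted p = 0.0524), or 1.31-fold with a 95% interval from 1.09 to 1.57. Without iron-loaded mouse 1, Slc25a37 passed the test (log2 fold change 0.43, edgeR adjusted p = 0.0254). Over 11 alternative settings the adjusted p ran from 0.0254 to 0.142.

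In 3’-LEXO, Slc25a37 was at 61.1, 60.8 and 64.4 CPM in the control mice and at 59.3, 78.8 and 68.5 CPM in the iron-loaded mice. Iron-loaded mouse 1 was below all control mice, so the diets overlapped, and without it they were separate. The log2 fold change was 0.15 ± 0.15 (edgeR adjusted p = 0.559), and its 95% interval, 0.884 to 1.39-fold, holds the Trad-KAPA estimate. Without iron-loaded mouse 1 the 3’-LEXO estimate was 0.24 (edgeR adjusted p = 0.320). The difference between the kits' log2 fold changes was -0.24 ± 0.18, with a 95% interval from -0.62 to 0.15, and -0.15 without iron-loaded mouse 1.

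Slc25a37 is known from erythroid cells, so blood cell markers are given beside it. The summed level of the 9 erythroid markers listed, of 10 sought, was 31.3 to 174 CPM in the control and 26.4 to 38.6 CPM in the iron-loaded Trad-KAPA libraries. The same sum was 177 to 1305 CPM in the control and 120 to 219 CPM in the iron-loaded 3’-LEXO libraries. The ranges overlapped in both kits, with the highest sums in control mice 2 and 3, and the part of these cells in the level of Slc25a37 was not tested. Slc4a1, which encodes an anion exchanger of red cells, was the 1 of 6 tested that was called in Trad-KAPA, with a log2 fold change of -3.26, and it was at 0 to 0.818 CPM in the iron-loaded 3’-LEXO libraries. With the 3’ kit 0 of 6 passed. The median log2 fold change of those tested was -1.86 (Trad-KAPA) and -1.90 (3’-LEXO). Klf1, of the same list, did not share this fall, at 0.07 (Trad-KAPA) and -0.01 (3’-LEXO). It gave 10.5 of the 26.4 CPM summed for iron-loaded mouse 1 with the whole transcript kit. The number of erythroid markers called in Trad-KAPA was 5 without control mouse 1 or with the replicate block, 6 of 9 without a filter, and 0 without iron-loaded mouse 2 or without iron-loaded mouse 3.

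The summed level of the 8 Kupffer cell markers was 442 to 659 CPM in the control and 746 to 757 CPM in the iron-loaded Trad-KAPA libraries, which did not overlap. In 3’-LEXO it was 1116 to 1447 CPM and 1400 to 1538 CPM, and the ranges overlapped. Kupffer cells are the macrophages of the liver and recycle the iron of red cells. In Trad-KAPA 2 of the 8 markers rose, Marco (log2 fold change 3.10) and Vsig4 (0.68), and in 3’-LEXO Marco alone did (2.82). The means of Marco in 3’-LEXO were 19.8 CPM (control) and 139.9 CPM (iron-loaded). The mean of Adgre1 was lower there (10.5 and 8.40 CPM), and those of the other Kupffer cell markers were higher. Slc25a37, Glrx5, Isca1 and Lyrm4 were, like the Kupffer cell sum, higher in every iron-loaded mouse in Trad-KAPA. The part of these cells in their levels was not tested. In 3’-LEXO the summed endothelial markers were 358 to 418 CPM in the control and 282 to 288 CPM in the iron-loaded mice, and Stab2 and Fcgr2b fell while Lyve1 rose. The stellate cell sum there was 490 to 533 and 445 to 473 CPM. Neither sum was separate between the diets in Trad-KAPA, and their part in the levels of Glrx5 and Nfs1, which were separate in 3’-LEXO, was not tested. In these bulk samples, more cells of a type and more RNA per cell cannot be told apart.

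Slc25a28, the mitoferrin of most other tissues, was at 21.2, 16.7 and 16.1 CPM in the control and 23.1, 19.9 and 19.0 CPM in the iron-loaded Trad-KAPA libraries. Its 3’-LEXO levels were 31.3, 21.8 and 23.4 CPM in the control and 32.1, 25.6 and 27.4 CPM in the iron-loaded mice. Mouse 1 of each diet was the highest in both kits, and the diets overlapped through control mouse 1. The fold change was 1.15 (95% interval 0.915 to 1.43, edgeR adjusted p = 0.361) in Trad-KAPA and 1.11 (0.850 to 1.46, edgeR adjusted p = 0.614) in 3’-LEXO.

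Nfs1, the sulfur donor, was the one member lower in all iron-loaded mice in both kits. In Trad-KAPA it was at 48.7, 48.1 and 47.8 CPM in the control mice and 39.7, 41.4 and 42.5 CPM in the iron-loaded mice. The controls lay within 1 CPM of each other (SD 0.455), and every iron-loaded library was below them. The fold change was 0.854 (95% interval 0.743 to 0.983), and it did not pass after adjustment (edgeR adjusted p = 0.108). In 3’-LEXO it was at 79.7, 84.3 and 75.8 CPM and at 52.8, 68.1 and 66.2 CPM, so that iron-loaded mouse 1 was the lowest. The fold change there was 0.780 (95% interval 0.621 to 0.981, edgeR adjusted p = 0.168). Its log2 fold change over the alternative settings was -0.25 to -0.19 in Trad-KAPA. The 3’-LEXO estimates lay between -0.44 and -0.25.

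Lyrm4, the partner that stabilizes Nfs1, was the member with the fewest reads in Trad-KAPA, 73 to 136 counts per library. Its level was 6.35, 6.70 and 5.64 CPM in the control and 9.11, 6.81 and 8.16 CPM in the iron-loaded mice. The groups were separate by a narrow gap, between control mouse 2 and iron-loaded mouse 2. The counting error of the lowest library alone was 11.7%. The fold change was 1.29 (95% interval 0.990 to 1.68, edgeR adjusted p = 0.159). In 3’-LEXO the values, 13.6, 13.3 and 11.1 CPM against 16.2, 15.2 and 12.5 CPM, overlapped through iron-loaded mouse 3 (1.16-fold, edgeR adjusted p = 0.473).

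The scaffold Iscu varied most of the 8 between mice of a diet in 3’-LEXO. In Trad-KAPA it was at 18.4, 19.6 and 26.0 CPM in the control and 18.4, 18.3 and 20.9 CPM in the iron-loaded mice. Control mouse 3 was high, and the others overlapped. The log2 fold change was -0.15 ± 0.15 (edgeR adjusted p = 0.522), and without control mouse 3 it was 0.02. In 3’-LEXO it was at 6.31, 10.4 and 11.3 CPM and at 15.9, 8.18 and 11.5 CPM, with control mouse 1 the lowest and iron-loaded mouse 1 the highest. The log2 fold change was 0.36 ± 0.28 (edgeR adjusted p = 0.461). It was 0.08 without iron-loaded mouse 1, 0.13 without control mouse 1 and -0.13 without both, the last chosen after seeing the data. No removal of a single mouse turned the sign in 3’-LEXO. The sign differed between the kits, and the difference between the kits, 0.51 ± 0.34 on the log2 scale, did not pass the test (95% interval -0.23 to 1.24). It was 0.23 without iron-loaded mouse 1. With the mouse as a block the difference was 0.50 (95% interval 0.03 to 0.97, edgeR adjusted p = 0.668).

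Glrx5, the glutaredoxin, had the most reads in 3’-LEXO and showed the same order of diets in both kits. In Trad-KAPA it was at 69.0, 70.4 and 66.7 CPM in the control and 78.1, 82.9 and 77.8 CPM in the iron-loaded mice. Its 3’-LEXO levels were 347.9, 370.5 and 392.9 CPM in the control and 466.7, 429.5 and 461.1 CPM in the iron-loaded mice. Iron-loaded mice were above control mice without overlap in each kit. The fold change was 1.16 (95% interval 1.00 to 1.34, edgeR adjusted p = 0.137) in Trad-KAPA and 1.22 (0.976 to 1.53, edgeR adjusted p = 0.249) in 3’-LEXO.

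Of the late-acting pair, Isca1 was higher in the iron-loaded mice of Trad-KAPA, at 18.0, 18.5 and 19.2 CPM against 15.5, 15.5 and 16.1 CPM in the control mice. Its groups were separate there, and the fold change was 1.18 (95% interval 1.00 to 1.39, edgeR adjusted p = 0.137). In 3’-LEXO, with 81 to 125 counts per library, it was at 6.60, 6.92 and 7.79 CPM in the control and 9.10, 7.53 and 8.81 CPM in the iron-loaded mice. Iron-loaded mouse 2 fell among the controls, and the fold change was 1.20 (95% interval 0.907 to 1.58, edgeR adjusted p = 0.398).

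Isca2, its partner, was at 20.6, 18.3 and 18.9 CPM in the control and 18.6, 17.2 and 17.3 CPM in the iron-loaded Trad-KAPA libraries. The 3’-LEXO libraries had 22.3, 27.9 and 23.7 CPM on the control and 21.5, 28.1 and 23.7 CPM on the iron-loaded diet. The diets overlapped over most of their range in 3’-LEXO, and in Trad-KAPA iron-loaded mouse 1 lay among the controls. The fold change was 0.918 (95% interval 0.774 to 1.09, edgeR adjusted p = 0.452) in Trad-KAPA and 0.991 (0.774 to 1.27, edgeR adjusted p = 0.969) in 3’-LEXO.

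**Figure D2:**
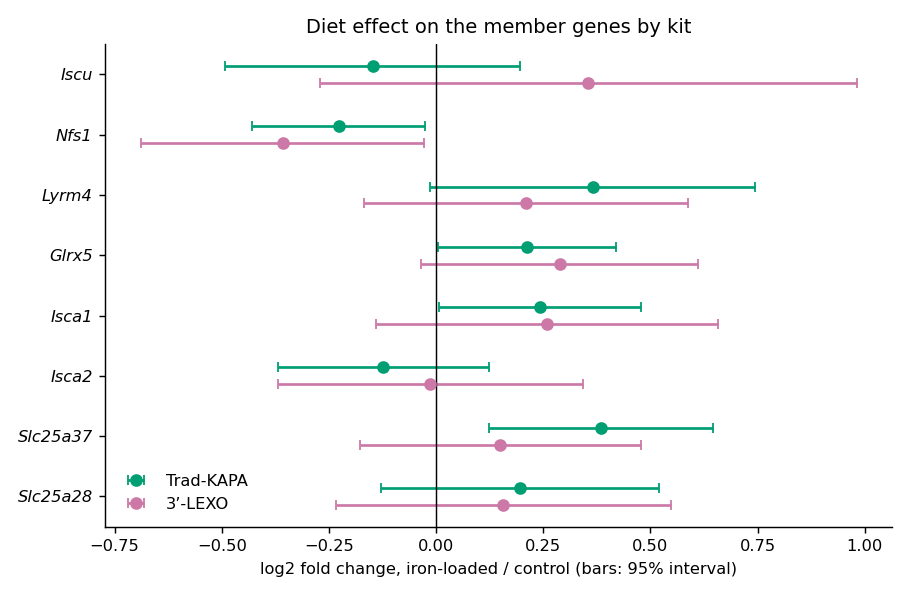
Points are the log2 fold changes of iron-loaded over control diet for each gene and kit, on the horizontal axis, with 95% intervals from the edgeR fit of 3 against 3 libraries. All intervals lie between -0.69 and 0.98, and none passed after adjustment over all genes.

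No difference between the diet effects of the kits passed the test. In the edgeR test of the interaction of diet and kit, 0 of the 8 members passed and 0 was below p of 0.05 before adjustment (adjusted p = 1.00 for each). The share of all genes that passed was 0%, with 402 of 14384 below 0.05 before adjustment and 0 called by DESeq2. The difference (3’-LEXO minus Trad-KAPA, log2) ran from -0.24 for Slc25a37 to 0.51 for Iscu. Since each mouse gave a library in both kits, the fit with the mouse as a block gave narrower intervals for each of the 8 members, such as -0.17 to 0.32 for Glrx5 and -0.54 to 0.04 for Slc25a37. It called 0 of the 8 members and 5 of all genes. Before adjustment 1 member, Iscu, was below 0.05 in it.

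The kits differed much more in level than the diets did. Because Trad-KAPA reads come from the whole transcript and 3’-LEXO reads from its 3’ end, a ratio of CPM between them is a ratio of read shares and not of RNA. With the mouse as a block, edgeR called 7 of the 8 members between the kits, where 83.2% of all genes passed.

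Glrx5 took the largest share of 3’-LEXO reads relative to Trad-KAPA, at 5.60-fold (95% interval 5.12 to 6.12, higher in 6 of 6 mice, edgeR adjusted p = 6.22e-16). Its ratio was above that of 95% of the genes tested. Lyrm4 followed with 1.94-fold, Nfs1 with 1.60-fold, Slc25a28 with 1.41-fold and Isca2 with 1.34-fold, each higher in 6 of 6 mice. Isca1 was in turn 2.17-fold higher in Trad-KAPA (95% interval 1.91 to 2.47), and Iscu 1.92-fold (1.59 to 2.32), each in 6 of 6 mice. The members of each pair of relatives thus did not have equal ratios, with Isca1 below and Isca2 above 1 in 3’-LEXO over Trad-KAPA. Slc25a37 was 1.11-fold higher in 3’-LEXO (95% interval 0.991 to 1.23, higher in 4 of 6 mice, edgeR adjusted p = 0.0804). It passed without iron-loaded mouse 1 (log2 ratio 0.19, edgeR adjusted p = 0.0292).

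**Figure D3:**
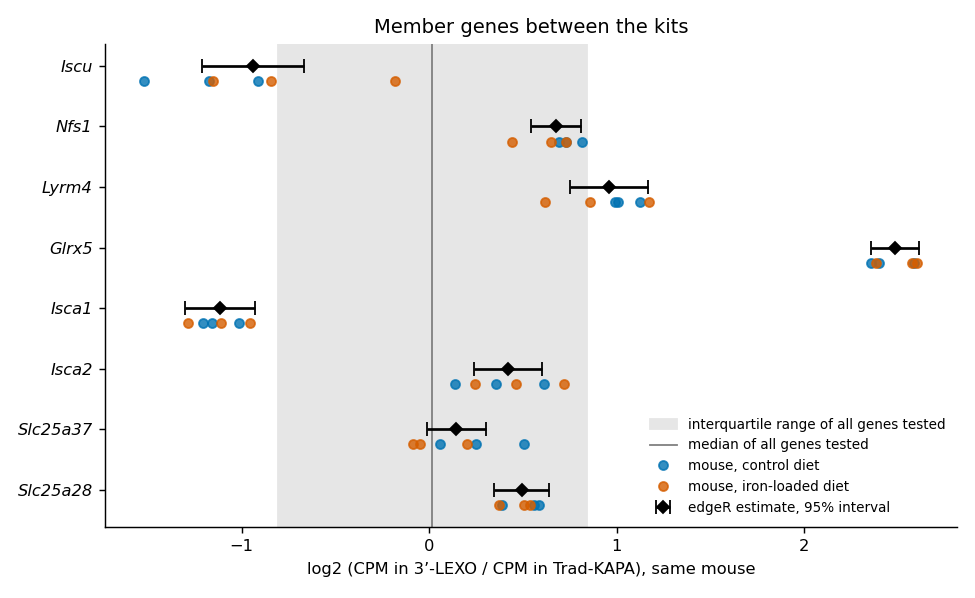
The horizontal axis gives the log2 ratio of CPM in 3’-LEXO to CPM in Trad-KAPA for the same mouse, with 1 point per mouse coloured by diet. Diamonds and bars are the edgeR estimates with 95% intervals. The grey band is the interquartile range of all 13311 genes tested, -0.81 to 0.84, and Glrx5, Lyrm4, Isca1 and Iscu have estimates outside it.

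A 3’ kit primes at the poly(A) tail, so the annotated transcript ends were searched for the hexamers AATAAA and ATTAAA on the sense strand, in the last 40 bases. Of 58797 protein-coding transcripts in GENCODE M21, 48.7% held one. All 3 coding transcripts of Nfs1, the 1 of Isca1 and 3 of 5 of Iscu held one, as did 1 of 2 each of Glrx5, Slc25a37 and Slc25a28. The 1 transcript of Lyrm4 and the 4 of Isca2 held none. Lyrm4 and Isca2, without a match, were both higher in 3’-LEXO, and members with a match were found higher in either kit.

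Levels were compared between genes only in Trad-KAPA and per kilobase (kb) of merged exons, as the mean ± SD over 6 libraries. Glrx5 stood first with 20.1 ± 1.73 CPM per kb, above every value of Nfs1 (12.4 ± 1.10). Isca2 (10.1 ± 0.677), Slc25a37 (10 ± 1.64) and Iscu (9.30 ± 1.37) followed, and from Nfs1 down to Iscu each gene overlapped in range with the next. Slc25a28 was lower, at 5.16 ± 0.702 CPM per kb, below Iscu in every library and overlapping in range with Lyrm4 (3.42 ± 0.612). By this length Isca1 was last with 1.60 ± 0.153 CPM per kb, separate from Lyrm4.

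The place of Isca1 depended on its length. Its merged exons cover 10680 bp over 7 transcripts, while its longest transcript has 4060 bp. Its 1 coding transcript is shorter still, at 1942 bp. Levels per kb of coding transcripts were not computed, so the place of Isca1 by that length is not known. Per kb of the longest transcript Isca1 was at 4.22 ± 0.402 CPM, above Lyrm4, whose range it overlapped. Nfs1 rose to 21.8 ± 1.93 and overlapped Glrx5 (25.4 ± 2.17), and Iscu, at 14.5 ± 2.13, moved above Isca2. By these 2 lengths the mitoferrins kept their order, with Slc25a37 above Slc25a28 in every library. The transcripts that hold the coding sequences compared above are shorter, at 4174 bp for Slc25a37 and 1535 bp for Slc25a28. Whether the order holds per kb of these transcripts was not tested.

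**Figure D4:**
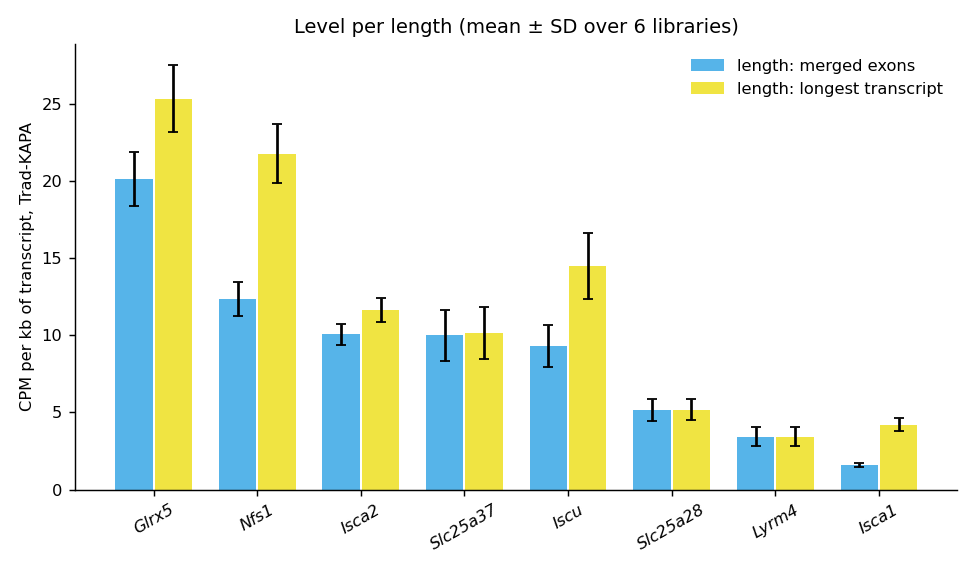
Bars, which start at 0, give the Trad-KAPA level of each gene in CPM per kb, as the mean with SD over 6 libraries. Each gene has a bar for the length of its merged exons and one for its longest transcript, and those of Isca1, at 1.60 and 4.22 CPM per kb, differ most as a ratio.

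Across the 12 libraries, with the mean of each kit taken off log2(CPM + 1), Glrx5 and Isca1 followed each other with r = 0.918, and Nfs1 ran against Glrx5 with r = -0.874. These describe libraries that share mice and diets. The genes most like Glrx5 among 12229 were Eepd1 (r = 0.975), Vps26a (0.971) and Arfgef2 (0.966). Of these, Eepd1 rose with the iron-loaded diet in both kits (log2 fold change 0.83 in Trad-KAPA, edgeR adjusted p = 0.00701, and 1.03 in 3’-LEXO, edgeR adjusted p = 0.0268). Vps26a, a part of the retromer, rose by 0.39 in Trad-KAPA (edgeR adjusted p = 0.0275) and did not pass in 3’-LEXO (0.46, edgeR adjusted p = 0.0855). Arfgef2 passed in neither kit (edgeR adjusted p = 0.235 and 0.321). As these genes were picked for following Glrx5, whose diets were separate, their diet values are no independent result.

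The other genes of early cluster assembly in the mitochondrion gave no call, with 0 of 6 tested in either kit. Hspa9, the mitochondrial chaperone that releases the cluster from the scaffold, was at 402 to 450 CPM in the control and at 1129, 460 and 458 CPM in the iron-loaded Trad-KAPA libraries. The level was that far above the rest only in iron-loaded mouse 1, and 3’-LEXO gave 1117, 445 and 461 CPM for the same mice. The log2 fold change was 0.70 ± 0.33 (edgeR adjusted p = 0.168), and 0.14 without that mouse. Fdx1, a ferredoxin, was below the controls in all iron-loaded Trad-KAPA libraries (log2 fold change -0.23 ± 0.12, edgeR adjusted p = 0.210), and in 3’-LEXO the diets differed by -0.02.

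The late mitochondrial factors also gave 0 of 5 calls in either kit. Bola3 was at 22.4 ± 3.25 CPM (SD, n = 3) in the control and 19.2 ± 0.845 CPM in the iron-loaded Trad-KAPA libraries (edgeR adjusted p = 0.249). Iba57, which works with Isca1 and Isca2, was at 11.7 ± 1.98 and 10.9 ± 1.70 CPM (edgeR adjusted p = 0.724). Abcb10, a transporter of the inner membrane that binds Slc25a37, was at 22.3 ± 1.01 and 20.99 ± 3.80 CPM (edgeR adjusted p = 0.713).

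Of the 12 genes for export and cytosolic assembly, 1 fell and 0 rose in Trad-KAPA, while 0 passed in 3’-LEXO. The gene that fell was Ciao3 (Narfl in GENCODE M21), a cytosolic carrier of clusters, at 21.1 ± 1.18 CPM in the control and 15.9 ± 1.23 CPM in the iron-loaded mice (log2 fold change -0.41 ± 0.11, edgeR adjusted p = 0.0414). In 3’-LEXO its libraries were also separate (log2 fold change -0.30, edgeR adjusted p = 0.269). The call of Ciao3 was kept in 3 of 11 alternatives, and it was lost with DESeq2 and without any 1 mouse other than iron-loaded mouse 1 (adjusted p up to 0.131). Bola2, named after its values were seen, had a log2 fold change of 0.85 in 3’-LEXO (edgeR adjusted p = 0.0641). It was called there with DESeq2, without a filter and without iron-loaded mouse 2. Iron-loaded mouse 1 held the highest Bola2 level there, 125.4 CPM, against 59.8 and 87.4 CPM in iron-loaded mice 2 and 3. Ciapin1, an electron donor of this machinery, was above the controls in every iron-loaded mouse of both kits without passing (log2 fold change 0.40 and 0.46, edgeR adjusted p = 0.0646 and 0.0813). Its level was highest in iron-loaded mouse 1 in both kits. Without that mouse the log2 fold changes were 0.26 and 0.35 (edgeR adjusted p = 0.0683 and 0.131).

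Among 14 mitochondrial proteins that carry clusters, 2 fell and 0 rose in Trad-KAPA, and 0 passed in 3’-LEXO. Both are subunits of complex I. Ndufs8 was at 59.3 ± 0.866 CPM in the control and 40.6 ± 4.99 CPM in the iron-loaded mice (log2 fold change -0.54 ± 0.11, edgeR adjusted p = 0.0165), and in 3’-LEXO its estimate was -0.55 ± 0.17 (edgeR adjusted p = 0.0813). Ndufv1 fell from 125 ± 9.19 to 95.9 ± 3.25 CPM (log2 fold change -0.39 ± 0.10, edgeR adjusted p = 0.0354), and its 3’-LEXO estimate was -0.38 ± 0.15 (edgeR adjusted p = 0.166). Ndufs8 lost its call without any 1 control mouse or iron-loaded mouse 3 (edgeR adjusted p up to 0.0574). Ndufv1 lost it without a filter, with the block, and without any 1 mouse other than iron-loaded mouse 1 (edgeR adjusted p up to 0.118). Without iron-loaded mouse 1, 3 of the 14 fell. DESeq2 called 4 of them lower in Trad-KAPA, and 1 of them lower in 3’-LEXO. The 14 had a median log2 fold change of -0.22 (Trad-KAPA) and -0.18 (3’-LEXO). Mitochondrial genes without a cluster gave 0 calls of 11 and of 10 tested, with medians of 0.14 and 0.15 beside 0.02 and 0.01 for all genes. The 0.14 was the value of Timm23 (SE 0.404), whose means were only 1.15 (control) and 1.26 CPM (iron-loaded). The list held changes of both signs, and whether a fall was limited to cluster proteins was not tested. Among them the ATP synthase subunit Atp5b was at 1064 ± 57.3 and 876.9 ± 24.0 CPM in Trad-KAPA (edgeR adjusted p = 0.126), and the outer membrane channel Vdac2 at 59.5 ± 3.31 and 71.1 ± 5.16 CPM (edgeR adjusted p = 0.115). The log2 fold change of Atp5b was -0.28 with either kit, and that of Vdac1 was -0.21 with the whole transcript kit. Cs, Tomm20 and Tomm40, of the same list, stood high in iron-loaded mouse 1 in Trad-KAPA (221.4, 37.5 and 54.5 CPM). Iron-loaded mice 2 and 3 reached at most 135, 22.4 and 36.7 CPM. Medians without iron-loaded mouse 1 are not given.

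Of 18 cluster proteins of other compartments, 2 rose and 3 fell in Trad-KAPA. In 3’-LEXO 1 of 17 rose, Aox1, an aldehyde oxidase. This count depended on the test, since DESeq2 called 3 higher (Abce1, Aox1, Ppat) and 2 lower (Aco1, Dpyd) in 3’-LEXO, and edgeR without a filter 3 higher and 4 lower of 18. The Trad-KAPA count was 0 higher and 1 lower without control mouse 2. Aox1 was at 92.5 ± 19.7 CPM in the control and 161.8 ± 8.39 CPM in the iron-loaded Trad-KAPA libraries (log2 fold change 0.81 ± 0.15, edgeR adjusted p = 0.0128). In 3’-LEXO the log2 fold change was 1.14 ± 0.24 (edgeR adjusted p = 0.0262), and iron-loaded mouse 1 was at 69.6 CPM against 36.8 and 38.3 CPM in the other 2. Without that mouse it passed in both kits (log2 fold change 0.78 and 0.77). The Trad-KAPA call was lost without control mouse 2 (edgeR adjusted p = 0.0546), and the 3’-LEXO call with the block or without any 1 control mouse (edgeR adjusted p up to 0.102). Dpyd, which degrades pyrimidines, fell from 620 ± 105 to 331.6 ± 58.4 CPM in Trad-KAPA (log2 fold change -0.90 ± 0.18, edgeR adjusted p = 0.0141), and it passed there in all 11 alternatives.

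Of the remaining calls, named after their values were seen, Ppat, the first enzyme of purine synthesis, rose by 0.76 (edgeR adjusted p = 0.0151). Pold1, the catalytic subunit of DNA polymerase delta, fell by 1.26 (edgeR adjusted p = 0.0178). Aco1, the cytosolic aconitase that without its cluster binds iron-responsive elements, fell by 0.59 (edgeR adjusted p = 0.0406). In 3’-LEXO the log2 fold changes of these genes were 0.84, -1.33 and -0.66, and none passed (edgeR adjusted p = 0.0634, 0.0850 and 0.0646). Ppat passed there in 4 of 11 alternatives, Aco1 in 2 and Pold1 in 1, DESeq2 being among those of Ppat and Aco1. The Trad-KAPA calls of Ppat and Pold1 were lost without control mouse 2 (edgeR adjusted p = 0.0623 and 0.0585), and that of Aco1 without any 1 mouse other than iron-loaded mouse 1 (up to 0.123). The calls in these lists make up 5 of 18, 2 of 14 and 1 of 12 genes in Trad-KAPA, beside 17.1% of all genes.

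**Figure D5:**
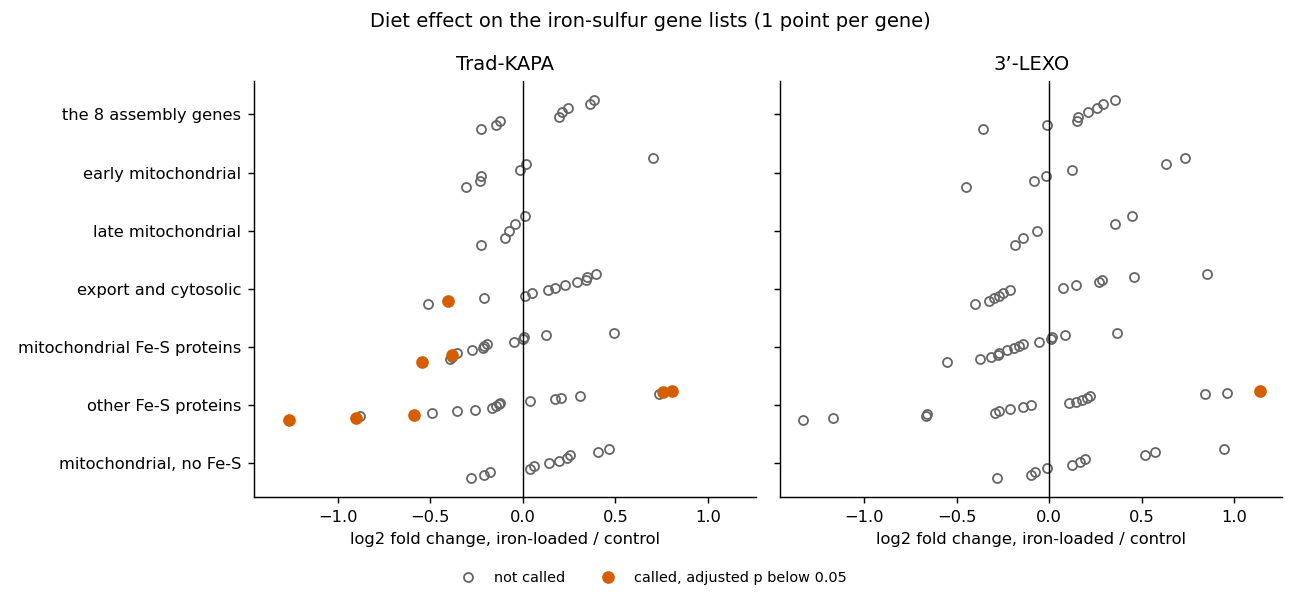
Each point is a gene, with its log2 fold change of iron-loaded over control on the horizontal axis and its list on the vertical axis, for Trad-KAPA on the left and 3’-LEXO on the right. Filled points passed the edgeR test. The 8 assembly genes hold no filled point in either kit, and Aox1 is the 1 filled point in 3’-LEXO.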

How the data were processed

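Liver RNA of 6 mice was sequenced as 12 libraries, 6 per kit. Per the labels, mapping was done by the authors to GRCm38 with STAR 2.5.3a, and they deposited raw counts of uniquely mapped reads per gene, neither normalized nor subsampled, in 1 table. The counting program, the annotation release and the use of strand are not given in the sources used here. Of the 27022 identifiers, 26949 were found in GENCODE M21, the source of symbols, positions and lengths. A replicate number stands for 1 mouse in both kits, and between these libraries the correlation of deviations from the group means was 0.444 to 0.769 over 10326 genes with a mean of at least 50 counts. Across diets the numbers name different mice.

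Tests were made over all genes with edgeR 4.0.16 (limma 3.58.1, R 4.3.3), with the quasi-likelihood F test, filterByExpr, TMM and Benjamini-Hochberg adjustment at 0.05. Diet was tested within each kit, their interaction in a joint fit of 12 libraries, and kit with the mouse as a block. The 95% intervals were taken from the same fits. P-values of the diet tests measure the spread between 3 mice per diet, and counting errors cover the sampling of reads only. Those of the kit test measure the spread of kit differences within 6 mice. The interaction fit without a block treats the 2 libraries of a mouse as independent. The fits were tested on simulated counts. DESeq2 1.42.0 and its size factors in edgeR, no filter, another block, leaving out each mouse and, chosen after seeing the data, leaving out control mouse 1 and iron-loaded mouse 1 together were the alternatives. Their use on the other gene lists was also chosen after seeing the data. Sequences and shared windows of 50 bases were computed from GENCODE M21 transcripts with Python 3.11.15 (numpy 2.4.6, pandas 2.3.3, scipy 1.17.1). Windows shared with other genes include repeats.

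The members and the gene lists were chosen with earlier results of these data known. Genes of each other list were named if called in both kits, and otherwise by the smallest Trad-KAPA p until 2 were named. Since no member was called, the genes most like a member were sought for Glrx5, which had the most reads.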

Additional observations from a re-analysis of the deposited data

How the results depend on the processing

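The number of members called was 0 to 1 in Trad-KAPA, 0 in 3’-LEXO, 0 for the interaction and 7 to 8 between the kits over all alternatives, including those that left out 1 mouse. The exception in Trad-KAPA was Slc25a37, called without iron-loaded mouse 1 and, in an alternative chosen after seeing the data, without control mouse 1 and iron-loaded mouse 1 (1 member, log2 fold change 0.43, edgeR adjusted p = 0.0487). The cause was not tested. With the replicate number as a block, 0 members were called in either kit, and with the mouse as a block 0 in the interaction. Without a block 7 were called between the kits. The block changed no call of a member.

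The sign of small estimates turned in 12 fits, each without a call. With 1 mouse left out, the log2 fold change of Iscu ran from -0.24 to 0.0168 in Trad-KAPA (above 0 without control mouse 3). That of Isca2 in 3’-LEXO ran from -0.14 to 0.0823 (above 0 without control mouse 2 or iron-loaded mouse 1). The interaction estimate ran from -0.0293 to 0.0970 for Isca1 (below 0 without control mouse 1 or iron-loaded mouse 1), from -0.0153 to 0.26 for Isca2 (below 0 without iron-loaded mouse 2) and from -0.0766 to 0.0145 for Slc25a28 (above 0 without control mouse 1 or iron-loaded mouse 2). Without both mice 1, Iscu was at -0.13 and Isca2 at 0.0030 in 3’-LEXO, and the interaction at -0.0042 for Glrx5 and -0.0991 for Isca1. The Iscu estimate in 3’-LEXO rose to 0.55 without iron-loaded mouse 2, and the interaction of Glrx5 to 0.15. The cause was not tested. Of the other values of single members, 340 kept their direction and side of the threshold, or stayed within the spread between replicates.

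The count of all genes called depended on the settings. It ran from 841 (without control mouse 2) to 2866 (no filter) in Trad-KAPA, beside 2255, and from 199 (without control mouse 3) to 2040 (no filter) in 3’-LEXO, beside 811. With DESeq2 it was 2431 and 1313, and with the replicate number as a block 1922 and 436. For the interaction it was 5 with the mouse as a block and 7 without a filter. Depth limited Lyrm4, Isca1 and Iscu most. The lowest library of each held 73 counts (Lyrm4, Trad-KAPA), 81 (Isca1, 3’-LEXO) and 87 (Iscu, 3’-LEXO), with counting errors of 11.7%, 11.1% and 10.7%.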
